A study of Bos taurus
Mus musculus with 10 samples.

Results

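CCN1 to CCN5 and ANKRD1 were followed in bovine embryonic stem cells and in the mouse fibroblasts on which they grew, after 1 day without the tankyrase inhibitor IWR-1. The 6 genes were chosen by symbol in the bovine table, among 27590 genes, and by NCBI gene ID in the mouse table, among 31349 genes. All 6 were present in both tables. Of the bovine members, 4 had a value of at least 10 normalised reads in at least 5 of the 10 libraries, the minimum for a test, and CCN4 and CCN5 did not. All 6 mouse members passed it.

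The tested wells, named IWRR in the labels, had spent 1 day in medium from which IWR-1 was removed, and the wells named IWR had spent it in the complete medium, mTeSR1 with 2.5 µM IWR-1. There were 5 wells of each kind, 1 of each for the wild-type stem cell lines 1, 2, 4, 8 and 11. All 5 lines came from day 7.5 blastocysts and had been kept with IWR-1 until then. In every well they grew on CD-1 mouse embryonic fibroblasts of E13.5, treated with mitomycin C so that they no longer divided. Each well gave 1 poly(A) library of stem cells and feeders together, and nothing in the labels says that a medium was repeated within a line.

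CCN proteins are secreted into the matrix around a cell, where they bind integrins, proteoglycans and growth factors and so alter adhesion and signalling. CCN1 (once CYR61) and CCN2 (once CTGF) are induced within hours by serum, by stretch and by YAP and TAZ, the co-activators that act through TEAD transcription factors when the Hippo kinases are inactive. ANKRD1 encodes an ankyrin repeat protein of the nucleus and the sarcomere, known from heart muscle, and is a customary readout of YAP and TAZ in cultured cells. CCN4 was first described as a gene induced by Wnt1 in mouse mammary cells, and CCN5 was named beside it, although it lacks the C-terminal cystine knot of its relatives. CCN3 (once NOV) often restrains proliferation, and in several cell types it opposes CCN2. IWR-1 stabilises AXIN and thereby lowers beta-catenin. Tankyrases also control angiomotins, which hold YAP in the cytoplasm.

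Recovered reads per library came to 48064953 to 64345738 on bovine genes and 17101894 to 35223039 on mouse genes. The share of a well's reads on mouse genes was lower without IWR-1 in all 5 lines, at 21.2% to 41.4% in the IWRR wells and 23.4% to 42.3% in the IWR wells. Values in each table were scaled within that table, so a change is relative to the other genes of its species, and fewer cells cannot be told apart from less RNA per cell. The bovine libraries carried the pluripotency genes POU5F1 (18294 to 58134 normalised reads in IWRR wells and 19326 to 62019 in IWR wells) and SOX2 (13371 to 19067 in IWRR wells and 13611 to 22072 in IWR wells), while DPPA4 stood at 0 to 7.35 over all wells. Line 4 stood apart in its summed level of 12 bovine fibroblast markers, at 135510 without IWR-1 and 124140 with it. The wells of the other lines held 19877 to 62202 and 18541 to 49393. Line 4 also had the highest mouse share, 41.4% without IWR-1 and 42.3% with it. In the other lines that share was 21.2% to 26.6% and 23.4% to 33.3%. The part of the mouse share in the bovine levels of line 4 was not tested. Fibroblast markers could not be checked in the mouse table, whose IDs no table used here names; the 6 mouse members carry the names given with their IDs. No transcript lengths were used, so levels are not compared between genes.

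In the bovine stem cells CCN1, CCN2 and ANKRD1 rose when IWR-1 was removed, and CCN3 did not pass the test. In the feeders Ccn1, Ccn2, Ccn4, Ccn5 and Ankrd1 rose and Ccn3 fell. A gene is said to have risen or fallen where limma, fitted over all tested genes of the species with the line as a block, gave a Benjamini-Hochberg adjusted p under 0.05. By that measure 3 of the 4 tested bovine members rose, where 0.886% of the 18506 tested bovine genes rose and 0.0648% fell (0.951% either way). Of the 6 mouse members 5 rose and 1 fell, where 2.14% of the 15871 tested mouse genes rose and 2.05% fell (4.19% either way). The members were chosen with earlier results of these data known, so these shares are set beside them as a description. With the mouse share of reads added as a covariate limma called no gene in either table; the members' values in that fit are given with the processing.

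CCN1 (gene ID 508941) was the bovine member in which the 2 media separated most clearly. It stood at 4883, 5812, 6506, 6057 and 7388 normalised reads in the IWRR wells of lines 1, 2, 4, 8 and 11, against 2095, 3859, 3432, 2453 and 3315 in the IWR wells of those lines. The lowest IWRR well lay above the highest IWR well, a separation that 0.0702% of tested bovine genes showed in this direction and 0.0432% in the opposite one. CCN1 averaged 6129 ± 920.0 normalised reads without IWR-1 and 3031 ± 731 with it (SD, n = 5 each), a log2 fold change of 1.04 ± 0.09 (SE; limma adjusted p = 0.00108). The medium accounted for 78.6% of the sum of squares of its log2 values and the line for 16.6%. The rise was smallest in line 2, at 0.59 on the log2 scale, and largest in line 8. Leaving out 1 line at a time kept the call and gave 0.97 to 1.15.

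**Figure D1:**
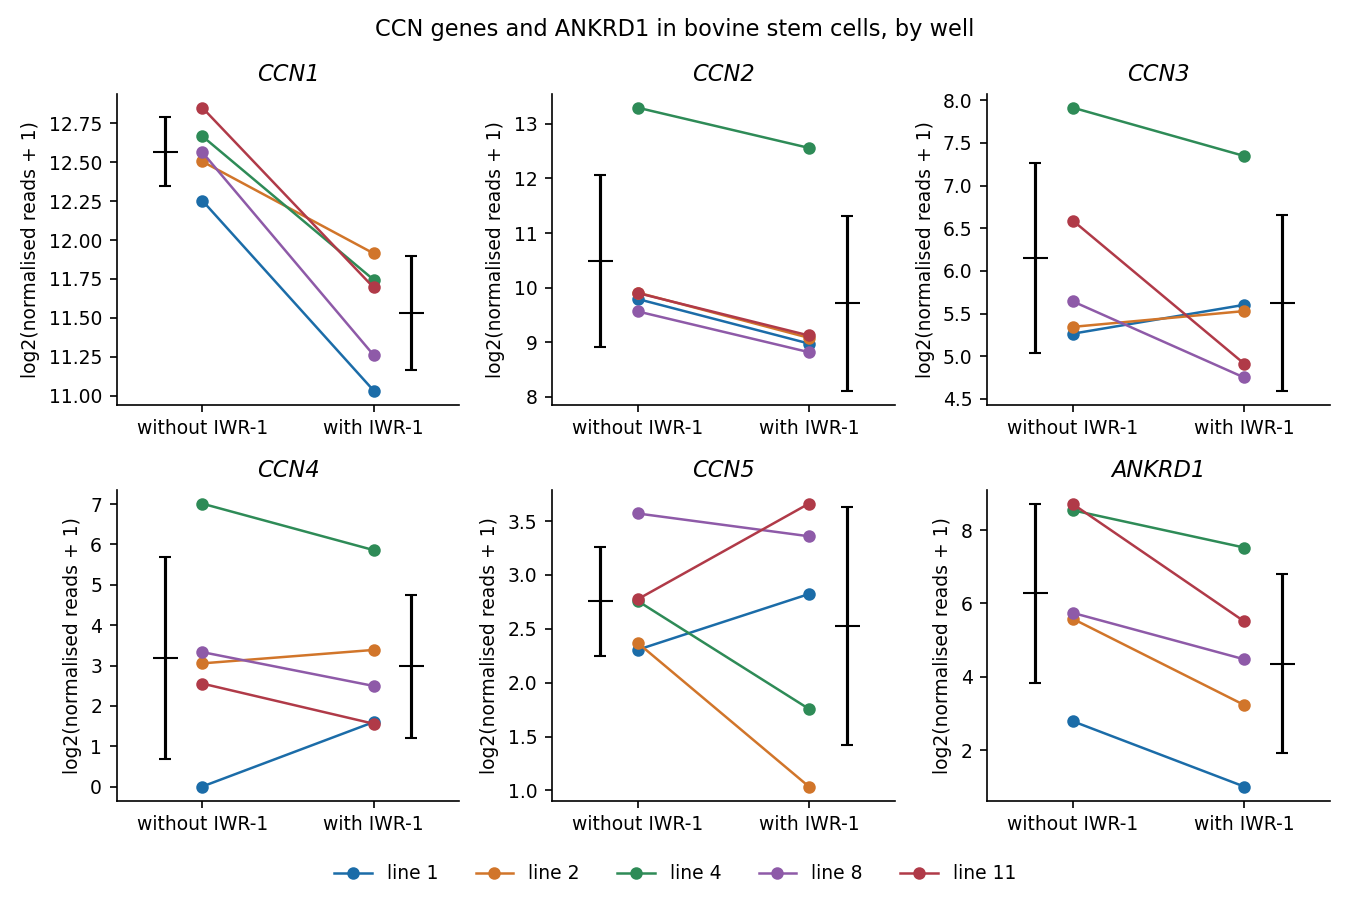
Each panel plots 1 bovine gene as log2(normalised reads + 1), with wells without IWR-1 on the left and wells with it on the right; lines join the 2 wells of a cell line, and black bars give the mean ± SD of 5 wells. All 5 lines slope down from left to right for CCN1, CCN2 and ANKRD1, and line 4 lies far above the others for CCN2 and CCN4.

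CCN2 (gene ID 281103) changed by almost the same factor in every line, although its level did not. It stood at 887, 962, 10063, 757 and 956 normalised reads in the IWRR wells of lines 1, 2, 4, 8 and 11, against 503, 541, 6038, 451 and 558 in the IWR wells. Line 4 was the highest in both media, and the other lines lay close together within each medium. On the log2 scale the 5 within-line changes ran from 0.74 in line 4 to 0.83 in line 2, with an SD of 0.04. The fitted change was 0.78 ± 0.06 (SE; limma adjusted p = 0.000656), or 0.79 without line 4. By p-value CCN2 ranked 2 of 18506 tested bovine genes. Of the sum of squares of its log2 values 92.9% lay between lines and 7.06% between media, and the groups overlapped through line 4 alone: in the other lines the IWRR wells held 757 to 962 normalised reads and the IWR wells 451 to 558.

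ANKRD1 (gene ID 510376) had the largest change of the called bovine members and rested on fewer reads than CCN1 and CCN2. It stood at 5.91, 46.9, 372, 52.6 and 418 normalised reads in the IWRR wells of lines 1, 2, 4, 8 and 11, against 1.01, 8.41, 183, 21.3 and 44.7 in the IWR wells. Line 1 held 6 recovered reads without IWR-1 and 1 with it, so its part in the change is poorly measured. The well of line 11 without IWR-1 was the highest of all, with 430 reads against 46 in its IWR well. The log2 fold change was 1.92 ± 0.31 (SE; limma adjusted p = 0.0207), the third largest rise among the 18506 tested genes. The within-line changes spread from 1.02 in line 4 to 3.20 in line 11. The call ended without line 1 (1.96, adjusted p = 0.0866) or line 11 (1.60, adjusted p = 0.103), and when low genes were kept in the limma fit (adjusted p = 0.0783). With any single line omitted the change was 1.60 to 2.15.

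CCN3 (gene ID 505727) did not move in 1 direction across the bovine lines. It stood at 37.4, 39.6, 240.1, 49.0 and 95.3 normalised reads in the IWRR wells of lines 1, 2, 4, 8 and 11, against 47.6, 45.2, 162, 25.9 and 29.1 in the IWR wells. It was higher without IWR-1 in lines 4, 8 and 11 and lower in lines 1 and 2. Lines 1 and 2 each held 38 recovered reads without IWR-1, against 47 and 43 with it, so their falls are poorly measured. The log2 fold change was 0.52 ± 0.28 (SE; 95% interval -0.09 to 1.14; limma adjusted p = 0.611). With any single line omitted it was 0.23 (without line 11) to 0.74 (without line 1), never called. The 95% interval holds both 0 and a change as large as that of CCN1. Line 4 again held the highest value in each medium.

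CCN4 (gene ID 539163) was scarcely detected in the stem cells outside line 4. It stood at 0, 7.30, 128, 9.07 and 4.86 normalised reads in the IWRR wells of lines 1, 2, 4, 8 and 11, against 2.02, 9.46, 57.1, 4.63 and 1.94 in the IWR wells. In line 4 this was 111 recovered reads without IWR-1 and 48 with it, and in the other lines at most 10. The 0 in line 1 allows up to 3 reads at that depth. CCN5 (gene ID 534658) held 3.94 to 10.9 normalised reads in IWRR wells and 1.05 to 11.7 in IWR wells, at most 12 recovered reads in any well. It was higher without IWR-1 in lines 2, 4 and 8 and lower in lines 1 and 11. Neither gene was in the main test, and both were given the exact test on 5 pairs, whose smallest p is 0.0625. The mean within-line log2 change was 0.21 for CCN4 (exact two-sided sign-flip permutation test, p = 0.688, n = 5) and 0.23 for CCN5 (same exact test, p = 0.625, n = 5). Both were also in the limma fit with low genes kept, whose values for them are not reported here. CCN6, the remaining family member, stood at 0 to 3.46 normalised reads in all wells.

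Ccn1 and Ccn2 rose in the feeders too. Mouse Ccn1 (gene ID 16007) stood at 1183, 1058, 3063, 2272 and 4108 normalised reads in the IWRR wells of lines 1, 2, 4, 8 and 11, against 666, 897, 1663, 1471 and 2071 in the IWR wells. Every well without IWR-1 exceeded its partner, but the groups overlapped, since feeders grown with lines 4, 8 and 11 held more Ccn1 with IWR-1 than those of lines 1 and 2 did without it. No mouse member separated the media completely; 0.258% of tested mouse genes did so upward and 0.296% downward. The log2 fold change was 0.71 ± 0.10 (SE; limma adjusted p = 0.00177), smallest in line 2 at 0.24. Mouse Ccn2 (gene ID 14219) stood at 1059.5, 1800.5, 4125, 1429 and 8003 normalised reads in the IWRR wells, against 535, 1173, 2254, 738 and 3200.0 in the IWR wells of lines 1, 2, 4, 8 and 11. Its order of lines was the same in both media, with line 11 highest, then lines 4, 2 and 8, and line 1 lowest. Its log2 fold change was 0.95 ± 0.09 (SE; limma adjusted p = 0.000274), rank 10 of 15871 by p-value.

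Ccn4 and Ccn5, all but undetected in most of the stem cell lines, were well covered in the feeders and rose there. Ccn4 (gene ID 22402) stood at 2169.5, 7261, 8195, 2839 and 10674 normalised reads in the IWRR wells of lines 1, 2, 4, 8 and 11, against 1364, 3274, 4661, 2164 and 4439 in the IWR wells. The log2 fold change was 0.86 ± 0.11 (SE; limma adjusted p = 0.00123), with within-line values between 0.39 in line 8 and 1.27 in line 11. Ccn5 (gene ID 22403) had the largest change of the mouse members, 1.66 ± 0.26 (SE; limma adjusted p = 0.0042), rank 6 among the 15871 tested genes ordered from the largest rise. It stood at 111, 307, 966, 207 and 210.1 normalised reads in the IWRR wells of lines 1, 2, 4, 8 and 11, against 98.0, 99.3, 263, 52.6 and 31.6 in the IWR wells. Line 1 barely differed between the media, at 0.17 on the log2 scale, and line 11 differed most, at 2.70. Without line 1 the change was 2.04.

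Mouse Ankrd1 (gene ID 107765) rose as well. It stood at 129, 345, 356, 195 and 1333 normalised reads in the IWRR wells of lines 1, 2, 4, 8 and 11, against 51.8, 236, 207, 119 and 625 in the IWR wells. Feeders of line 11 held the most and those of line 1 the least in both media. Its log2 fold change was 0.89 ± 0.12 (SE; limma adjusted p = 0.00177).

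Ccn3 was the one member that fell in the feeders. Mouse Ccn3 (gene ID 18133) stood at 955, 285, 359.7, 612 and 234 normalised reads in the IWRR wells of lines 1, 2, 4, 8 and 11, against 1624.5, 668, 592, 781 and 478 in the IWR wells. It was lower without IWR-1 in all 5 lines, most in line 2 (-1.23 on the log2 scale) and least in line 8 (-0.35). Ccn3 had a log2 fold change of -0.82 ± 0.11 (SE; limma adjusted p = 0.00182). In each medium the ends of the order of lines were swapped against Ccn2 and Ankrd1. Feeders of line 1 held the most Ccn3 and the least Ccn2 and Ankrd1, and feeders of line 11 the least Ccn3 and the most Ccn2 and Ankrd1. The order between these ends was not reversed throughout: in IWRR wells line 4 lay above line 2 for Ccn3, Ccn2 and Ankrd1. All 6 mouse calls held when any 1 line was left out.

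**Figure D2:**
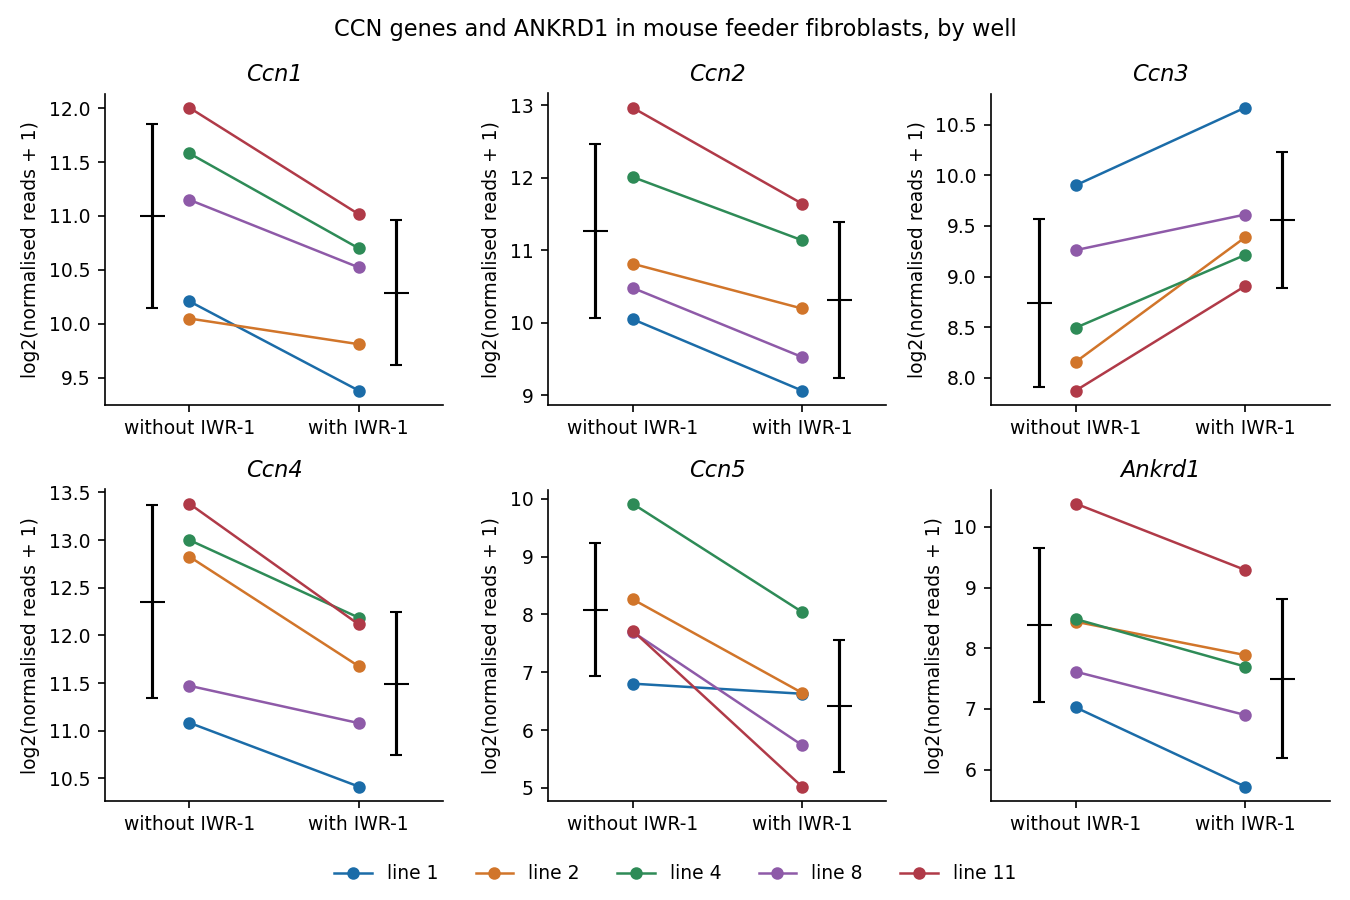
Each panel plots 1 mouse gene as log2(normalised reads + 1), with wells without IWR-1 on the left and wells with it on the right; lines join the wells that share a stem cell line, and black bars give the mean ± SD of 5 wells. Ccn3 is lower on the left in all 5 lines and the other 5 genes are higher there.

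Within lines, 9 of the 12 member rows moved in 1 direction in all 5 lines: bovine CCN1, CCN2 and ANKRD1 and the 6 mouse genes. Among all tested genes 6.20% of the bovine ones were higher in all 5 lines and 4.92% lower, while 7.83% of the mouse ones were higher in all 5 and 7.83% lower. For each of the 9 the exact two-sided sign-flip permutation test gave p = 0.0625, the smallest that 5 pairs allow. Without the line as a block, limma called none of the 10 tested member rows: CCN1 had an unadjusted p of 0.000111 in the stem cells and Ccn5 one of 0.0213 in the feeders, the others had 0.0714 or more.

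The change in the stem cells was then compared with that in the feeders of the same wells, line by line, for the 4 members tested in both. For CCN3 the bovine log2 change exceeded the mouse one in all 5 lines, by a mean of 1.34 ± 0.84 (SD, n = 5; exact two-sided sign-flip permutation test, p = 0.0625). ANKRD1 also changed more in the bovine table in all 5 lines, by 1.03 ± 0.85 (same exact test, p = 0.0625), a difference that was 0.58 with a pseudocount of 10 (same exact test, p = 0.312). CCN1 changed more in the bovine table by 0.33 ± 0.24, again in all 5 lines (same exact test, p = 0.0625). For CCN2 the bovine change was the larger in 1 line and the mouse change in 4, with a mean difference of -0.17 ± 0.27 (same exact test, p = 0.312). Adjusted over the 4 genes, the smallest p was 0.0833, so no difference between species passed 0.05, which 5 pairs cannot reach. Both species of a well share its medium, RNA extraction and library.

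**Figure D3:**
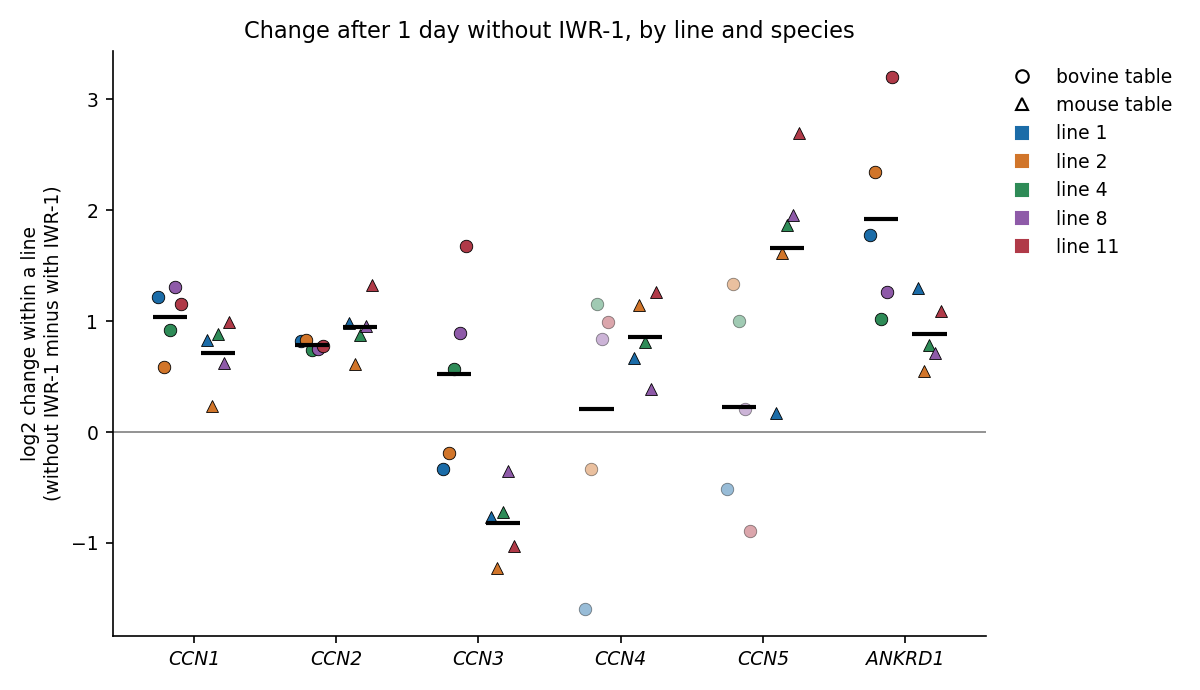
Log2 change within each line, without IWR-1 minus with it, for each gene; circles are the bovine table, triangles the mouse table, colours the line, and black bars the mean of 5 lines. The bovine CCN2 points lie within 0.74 to 0.83, the mouse Ccn3 points are all below 0, and the pale bovine CCN4 and CCN5 points rest on few reads.

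The sources used here do not say what was done with reads that match both genomes, so the bovine and mouse reads of each member were set side by side. Ccn4 gave the tightest limit: outside line 4 the wells held 1211 to 10870 mouse reads for it and 0 to 10 bovine reads, at most 0.426 bovine reads per 100 mouse reads. In line 4 there were 0.813 bovine reads of CCN4 per 100 mouse reads without IWR-1 and 0.621 with it. For CCN1 the bovine reads exceeded the mouse reads in all 10 wells, at 104 to 641 per 100. For CCN2 they ranged from 12.1 per 100 in line 11 to 136 per 100 in line 4, and the feeders of line 11, with the most Ccn2, shared wells with stem cells whose CCN2 (956 normalised reads without IWR-1 and 558 with it) was close to that of line 2 (962 and 541). ANKRD1 had 2.17 to 54.3 bovine reads per 100 mouse reads, CCN3 3.26 to 41.2 and CCN5 0.311 to 27.3. Reads of 1 species counted in the other were not tested gene by gene.

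Most other targets of YAP and TEAD were not called in the stem cells. The list was a published signature of such genes in human tumours without CCN1, CCN2 and ANKRD1, which holds 19 genes, of which 18 were tested. Of these 2 rose and none fell, against 0.886% of all tested bovine genes rising. An unadjusted limma p under 0.05 was found for 9 of the 18, and for 1870 of all 18506 tested genes. edgeR called the same number, 2, and 190 of all tested genes. DESeq2 called 5, none of them downward, and 420 of all tested genes, 358 of them upward. Their median log2 fold change was 0.19, against -0.0046 for all tested genes, and 17 of 18 were positive. The list was chosen with earlier results of these data known and is given as a description.

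The genes that rose were AMOTL2 and GADD45A. AMOTL2, an angiomotin relative that binds YAP, stood at 10883, 12368, 11828, 9199.95 and 12413 normalised reads in the IWRR wells of lines 1, 2, 4, 8 and 11, against 7350, 7569, 8173, 6860.0 and 8974 in the IWR wells. The groups did not overlap, as in 0.0702% of tested bovine genes in this direction. AMOTL2 had a log2 fold change of 0.54 ± 0.06 (SE, limma adjusted p = 0.0027). GADD45A, a gene of the growth arrest and DNA damage response, stood at 401, 406, 706, 623 and 1127 normalised reads in the IWRR wells of those lines, against 267, 303, 384, 298 and 567 in the IWR wells. Its log2 fold change was 0.79 ± 0.11 (SE; limma adjusted p = 0.0114), a call that ended without line 11 (0.74, adjusted p = 0.0794). Next came 3 genes that were not called: NUAK2, a kinase (0.33 ± 0.08), PTPN14, a phosphatase that binds YAP (0.47 ± 0.12), and CCDC80, a matrix protein (0.59 ± 0.15). The receptor tyrosine kinase AXL (0.19 ± 0.07) and the tissue factor gene F3 (0.08 ± 0.08), also frequent readouts of YAP, were not called.

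Among YAP, TAZ and their partners, 1 of 9 tested genes was called, TEAD4, against 0.951% of all tested bovine genes. It is one of the DNA-binding factors through which YAP acts, and it stood at 2693, 3281, 1856, 1845 and 2392 normalised reads in the IWRR wells of lines 1, 2, 4, 8 and 11, against 1347, 1379.6, 1264, 1295 and 1304 in the IWR wells. All IWRR wells lay above all IWR wells, as in 0.0702% of tested bovine genes. TEAD4 had a log2 fold change of 0.84 ± 0.10 (SE, limma adjusted p = 0.00541, or 0.0511 without line 1). The other 8 of 9 genes tested were not called, 7 of them with a positive change: TEAD3 was at 0.22 ± 0.07, TEAD1 at 0.24 ± 0.10 and the Hippo kinase gene LATS2 at 0.12 ± 0.06. YAP1 itself stood at 0.04 ± 0.06 and WWTR1, which encodes TAZ, at 0.05 ± 0.05. The median of the 9 was 0.09.

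Of 13 receptors and co-receptors of CCN proteins 11 were tested, and ITGB5 was the 1 that rose. Among all tested bovine genes 0.886% rose. ITGB5 encodes the integrin beta 5 subunit, which pairs with alpha V to bind CCN1 and CCN2. It stood at 145, 656, 3053, 624 and 1379.6 normalised reads in the IWRR wells of lines 1, 2, 4, 8 and 11, against 101, 270.0, 2659.5, 410.2 and 803 in the IWR wells. Its log2 fold change was 0.67 ± 0.13 (SE; limma adjusted p = 0.0431), and the call ended without line 1, 8 or 11 (adjusted p up to 0.218) and with low genes kept in the fit (0.117). Syndecan 4, a heparan sulphate co-receptor (SDC4, 0.23 ± 0.07), and the integrin subunits ITGA5 (0.11 ± 0.06) and ITGB3 (0.13 ± 0.08) were not called. ITGAV, the partner of ITGB5, was at 0.02 ± 0.07. The median of the 11 was 0.08, and 7 were positive. ITGAM and ITGB2, integrin subunits of leukocytes, were below the minimum for a test.

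**Figure D4:**
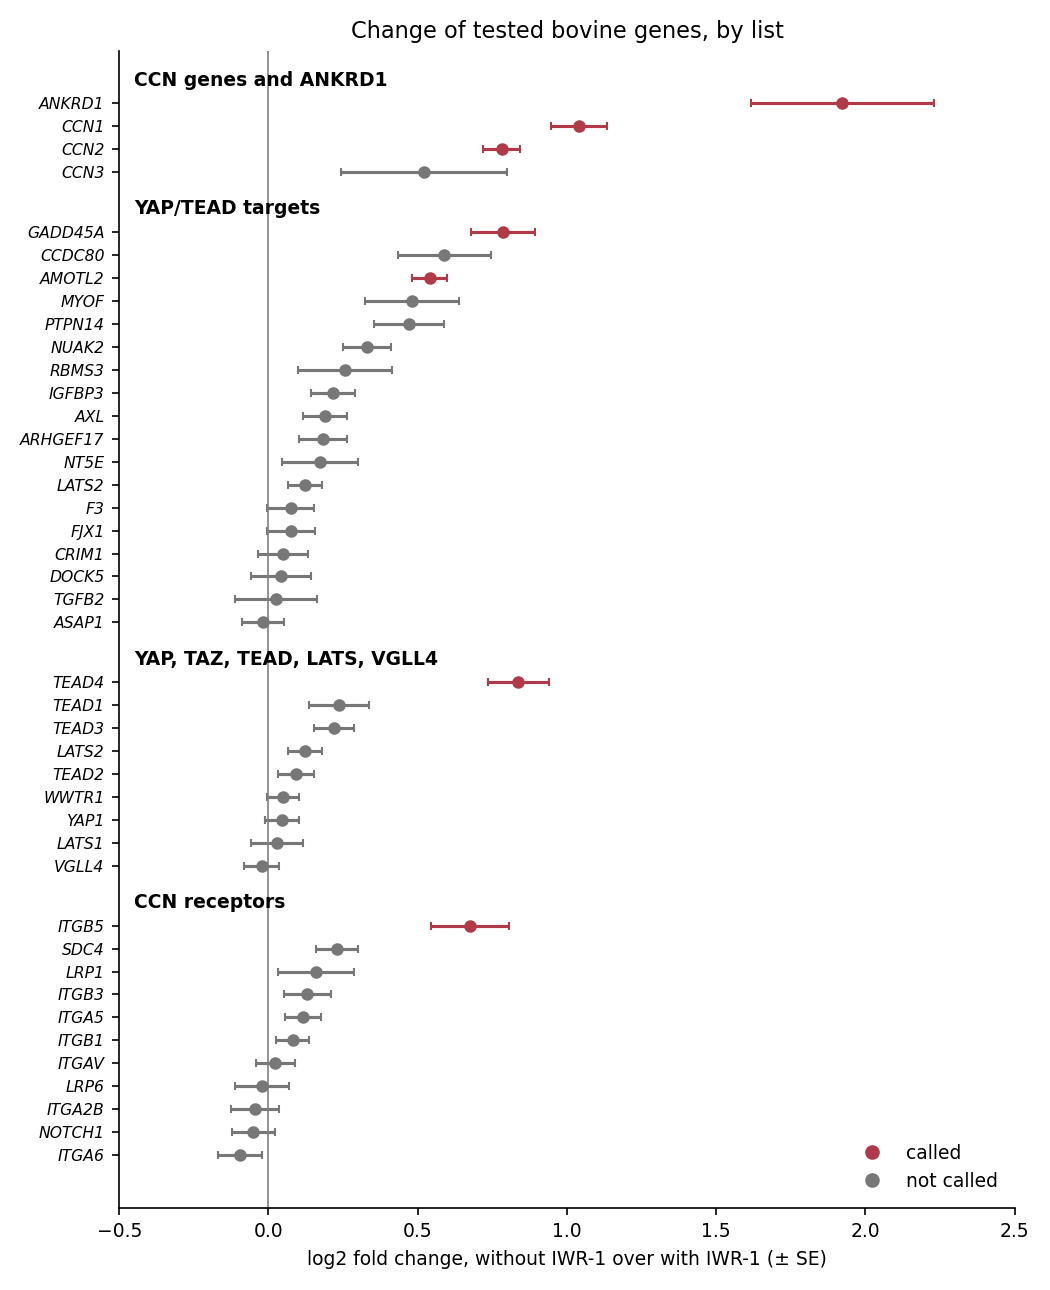
Bovine log2 fold changes, without IWR-1 over with IWR-1, with SE bars from limma with the line as a block; red marks genes with an adjusted p under 0.05. ANKRD1, CCN1 and CCN2 lie at 0.78 to 1.92, and outside the members the 4 genes in red are GADD45A, AMOTL2, TEAD4 and ITGB5.

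The nearest relatives of ANKRD1 were not called. ANKRD23 stood at 497 to 744 normalised reads in IWRR wells and 485 to 709 in IWR wells (log2 fold change 0.01 ± 0.09), and ANKRD2 was at -0.22 ± 0.22. Both encode muscle ankyrin repeat proteins like ANKRD1. Among 6 cardiac muscle markers, 4 were tested and 1 rose, against 0.886% of all tested bovine genes. It was the atrial myosin light chain gene MYL7, at 14.8 to 261 normalised reads without IWR-1 and 9.11 to 108 with it (1.06 ± 0.20 SE, limma adjusted p = 0.0411). Its call ended without line 1, 4, 8 or 11 (adjusted p up to 0.272) and with low genes kept in the fit (0.117). MYH6 (0.50 ± 0.18 SE), MYH7 (0.32 ± 0.19) and ACTN2 (0.17 ± 0.37) were not called. All 4 tested cardiac markers had a positive change, with a median of 0.41. Below the minimum for a test were TNNT2, at 0 in 5 wells and at most 5.56, and NKX2-5, at 0 in 3 wells and at most 17.3. The summed level of the 6 was 158 to 646 in IWRR wells and 163 to 376 in IWR wells, higher without IWR-1 in 4 of 5 lines; its part in the result for ANKRD1 was not tested.

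None of the 12 bovine fibroblast markers was called by limma, where 0.951% of all tested bovine genes were called. Of the 12, 9 had a positive change, with a median log2 fold change of 0.19. Smallest by p were PDGFRB (0.56 ± 0.12 SE), COL1A1 (0.36 ± 0.08) and THY1 (0.30 ± 0.09). The negative changes were those of COL1A2, next by p (-0.30 ± 0.10), DCN (-0.24 ± 0.13) and TWIST2 (-0.08 ± 0.20). The summed level of the 12 was higher without IWR-1 in 5 of 5 lines, at 19877 to 135510 in IWRR wells and 18541 to 124140 in IWR wells. CCN1, CCN2 and ANKRD1 had log2 fold changes of 1.07, 0.79 and 2.15 without line 4, the line with the most fibroblast marker reads, each still called. Of 8 tested pluripotency markers 1 rose, against 0.886% of all tested bovine genes. It was NANOG (0.33 ± 0.06 SE, limma adjusted p = 0.0411). That call ended without line 1, 2, 4 or 11 (adjusted p up to 0.242) and with low genes kept in the fit (0.0821). Of the 8 pluripotency markers 5 had a positive change, with a median log2 fold change of 0.05. Negative were SOX2 (-0.10 ± 0.06 SE), UTF1 (-0.12 ± 0.10) and POU5F1 (-0.01 ± 0.08). For these markers the summed level of the 9 found was 71661 to 147378 in IWRR wells and 66988 to 145715 in IWR wells. Of 2 tested trophectoderm and 3 tested endoderm markers none was called. Summed levels of these lists were 215 to 2095 and 34.6 to 121 in IWRR wells, against 211 to 1810 and 32.1 to 147 in IWR wells. The part of other cell types in the results was not tested.

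By level over all 10 libraries, the genes most like each member differed between the members. Likeness was taken as Pearson's r of log2 values over the 10 libraries, given as a description; wells of a line share that line. CCN1 was most like AMOTL2 (r = 0.88), the tropomyosin gene TPM1 (0.87) and the calponin gene CNN1 (0.85). ANKRD1 was most like TIMP3, an inhibitor of metalloproteases (0.97), CSRP1, an actin-bundling LIM protein gene (0.97), and the carbonic anhydrase gene CA3 (0.97); these stayed at 0.96 to 0.97 over the 8 libraries without line 4. CCN2 was most like PCDH18, EFHD2 and TWIST1 (each 0.99), and CCN3 most like PAPPA (0.97), JAG1 (0.96) and MAN1B1 (0.96). Both of these sets rested in part on the high level of line 4: without it the r values were 0.85 to 0.87 for CCN2 and 0.85 to 0.88 for CCN3. Between members, CCN2 and CCN3 had an r of 0.92, or 0.54 without line 4, and CCN1 and CCN2 one of 0.38, or 0.90 without line 4.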

How the data were processed

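The files deposited by the authors hold a normalised signal for each gene, bovine and mouse genes apart. Reads were mapped to ARS-UCD1.3 and GRCm39, per the labels' protocols. Among the tools in the submitters' processing notes, whose roles are not given, are featureCounts 1.5.0-p3, HISAT2 2.0.5, fastp and StringTie 1.3.3b. In each library the deposited signal values were whole multiples of 1 step (100% of positive values, tolerance 0.01 reads), from which reads were recovered. The mouse table held 2 further columns, which were not used; the scaling may have included them.

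Bovine symbols came from a RefSeq gene table of ARS-UCD2.0 (24660 of 27590 IDs matched), so no coordinates are given. The main test was limma 3.58.1 in R 4.3.3, with intensity trend, on log2(value + 1), which understates changes of low genes, with the line as a block. The line pairs the wells because both held stem cells of the same line. The feeders were not of that line and are paired only by the stem cells they grew with. Deviations from group means correlated within lines, at 0.617 to 0.883 (bovine) and 0.488 to 0.725 (mouse). The highest correlation with another line was 0.221 in the bovine table. In the mouse table it was 0.408, for line 2, against 0.488 within that line. The block takes out differences of level between lines. With 1 well per line and medium, p-values measure how the change varied between lines together with the spread between wells. The fit was tested on simulated data.

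Alternatives were no block, pseudocounts of 0.5 and 10, no filter, edgeR 4.0.16 and DESeq2 1.42.0 on recovered reads, the mouse share as covariate and leaving out each line. Members and lists were chosen with earlier results of these data known. Named genes are the 6 members and the called genes of each list with up to 3 next by p. The 3 genes most like each tested member, with a mean value of at least 100, are named too. AXL, F3, YAP1, WWTR1, ITGAV, COL1A2, DCN, TWIST2 and UTF1 were added after their values were seen.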

Additional observations from a re-analysis of the deposited data

Results flagged for a closer look

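Each group of 5 wells and each set of 5 within-line changes was examined for a value far from the others, by the gap to its neighbour over the whole range. Wells were examined in normalised reads and not on the log2 scale, while changes were on the log2 scale. Of 36 such groups 11 were flagged, and wells of the same line recur among them. The limit used flags about 1 in 20 groups of normally distributed values. Normalised reads need not be so distributed, so the 11 flags cannot be set against that rate.

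Line 4, which also had the highest mouse share in both media, gave 8 of the flags, all but 1 of those in the bovine table. CCN2 stood at 10063 normalised reads in its IWRR well and 6038 in its IWR well, against at most 962 and 558 in the other lines. CCN3 stood at 240.1 without IWR-1 and 162 with it, against at most 95.3 and 47.6. CCN4 stood at 128 without IWR-1 and 57.1 with it, against at most 9.07 and 9.46. ANKRD1 in line 4 was apart with IWR-1 only, at 183 against at most 44.7.

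CCN5 in the IWRR well of line 8 stood at 10.9 normalised reads, or 12 recovered reads, against at most 5.84. In the mouse table, Ccn3 with IWR-1 was high in line 1 (1624.5 against at most 781), Ccn5 without IWR-1 in line 4 (966 against at most 307) and Ankrd1 without IWR-1 in line 11 (1333 against at most 356). None of the 12 sets of within-line changes was flagged. They were on the log2 scale, so this cannot be compared with the flags among wells.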

How the results depend on the processing

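Direction and call of the 4 tested bovine and 6 mouse members held with pseudocounts of 0.5 and 10, edgeR and DESeq2. Without the filter ANKRD1 lost its bovine call (adjusted p = 0.0783), and bovine calls fell to 53, mouse calls to 329 and receptor calls to 0. With no replicate block, limma called 0 bovine and 0 mouse genes (105 and 584 at an unadjusted p under 0.05), and 0 genes of each of the 3 lists. With each well's mouse read share as covariate beside the block, 0 bovine and 0 mouse genes were called (456 and 687 at an unadjusted p under 0.05), and 0 on each list. In that fit bovine CCN1 was at 0.98, CCN2 at 0.77, ANKRD1 at 0.70 and CCN3 reversed to -0.32, and mouse Ccn1 was at 0.73, Ccn2 at 0.74, Ccn3 at -0.64, Ccn4 at 0.57, Ccn5 at 0.75 and Ankrd1 at 0.88; the cause was not tested. DESeq2 called 420 bovine genes, against 176, and 5 YAP/TEAD targets. Leaving out 1 line gave 31 to 184 bovine calls, 269 to 936 mouse calls, 1 to 3 YAP/TEAD targets, and 0 to 1 receptors and 0 to 1 genes of the YAP, TAZ and TEAD list. The mean within-line change of bovine CCN4 ran from -0.0241 (without line 4) to 0.66, and that of CCN5 from -0.0480 (without line 2) to 0.51. Depth limits bovine CCN4 and CCN5, CCN3 in lines 1 and 2, and ANKRD1 in line 1.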

Other observations

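On the trophectoderm list, CDX2 stood at 86.6 normalised reads in the IWRR well of line 4 and 1.19 in its IWR well, against at most 0.973 in the wells of the other lines. The gene was singled out after its values were seen, and 1 pair of wells gives no test.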
